A study of Mus musculus with 8 samples.

Results

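The enzymes that attach palmitate to proteins and remove it were followed in cultured mouse hippocampal neurons after depolarisation. The set held every array gene whose only symbol was a Zdhhc number or one of a short list of thioesterases and partner proteins. It came to 36 of the 22180 named genes: 23 Zdhhc palmitoyltransferases, 11 thioesterases and 2 cofactors, Golga7 and Golga7b. Where a gene had several probe sets, the one with the highest mean over all 8 arrays stood for it. Probe sets were thus chosen by their mean level over both groups and not by the change after KCl, but the set itself was proposed with earlier results of this comparison known. The values below are therefore a description of these genes within a fit across all genes.

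S-palmitoylation joins the fatty acid palmitate to a cysteine by a thioester bond, which anchors the protein to a membrane. Transferases of the Zdhhc family, named after the Asp-His-His-Cys motif of their catalytic domain, sit in the membranes of the endoplasmic reticulum, the Golgi and the cell surface. Thioesterases cut the bond again, so that the modification can turn over. In neurons, palmitate holds scaffolds, receptors and vesicle proteins at synapses, and its turnover on the scaffold Dlg4 (PSD-95) is known to follow activity.

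The tested cultures were held in 55 mM KCl for 4 h (4 arrays), and the others were untreated (4 arrays). High potassium depolarises neurons and opens their voltage-gated calcium channels. Both groups came from C57BL/6J hippocampi dissected at stage E18.5 and grown for 11 days in vitro, and both had received AraC, which kills dividing cells, with the medium changes. Each array carried its own mouse number, and nothing in the labels says whether the cultures were prepared separately, so p-values measure the spread between these samples only.

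Across 34472 probe sets the log2 medians of the arrays were 4.44 to 4.48, and the number of arrays limits the precision. Both arrays numbered 1 stood apart on the first principal component, at scores of -43.2 (KCl) and -48.6 (untreated), against -4.58 to 26.6 for the other 6 arrays. All 8 neuronal markers lay above the level of the median gene in their mean over the 8 arrays, and none of them passed the test in either direction. One of them, Gad1, an enzyme of GABA synthesis, did so through the KCl arrays, with a mean of 5.69 ± 0.945 in KCl arrays and 4.61 ± 0.482 in untreated arrays (SD, n = 4 each, adjusted p = 0.353), where the median gene stood at 4.76. The 7 astrocyte markers also lay above it. Their mean was 9.15 to 9.67 in KCl arrays and 9.08 to 10.1 in untreated arrays, with the arrays numbered 1 at the top of each range. Of these, Slc1a2, a glutamate transporter, fell (log2 change -0.78, adjusted p = 0.0479) and 6 did not pass. The part of astrocytes in the changes below was not tested. Of the oligodendrocyte, microglial, endothelial and fibroblast markers, 4 of 23 lay above the median gene and none passed.

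After 4 h of KCl, 3 transferase genes fell, none rose and 20 did not pass the test. Those that fell were Zdhhc13, to 0.435 of its untreated level, Zdhhc21, to 0.52, and Zdhhc23, to 0.565. Among the thioesterases Abhd10 fell, to 0.605 of its untreated level, none rose and 10 did not pass. Neither cofactor passed, nor did either have an unadjusted p under 0.05. At that unadjusted limit, 9 transferases and 2 thioesterases were lower after KCl and no member was higher. Of all 22180 genes, 1627 (7.34%) were lower at that limit and 1261 were higher. Over all 22180 genes, 2.36% passed the same test, limma with Benjamini-Hochberg adjustment at 0.05, of which 1.02% fell and 1.34% rose. With the replicate number as a block, the same 3 transferases and no thioesterase fell, against 2.01% of all genes. Because the comparison was known when the set was chosen, nothing is read from these counts. In RNA from whole cultures, fewer cells of a type and less RNA per cell cannot be told apart.

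**Figure D1:**
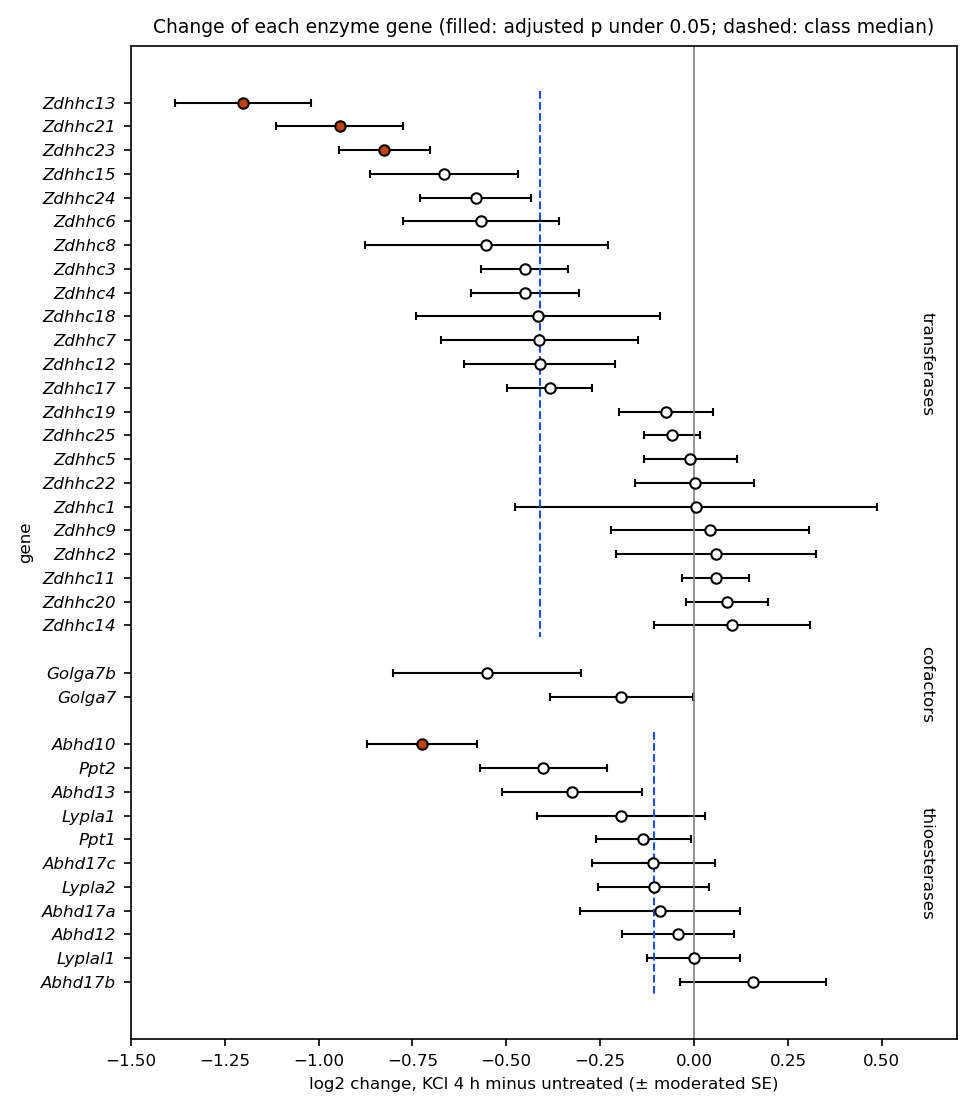
Log2 change (KCl minus untreated, x axis, ± moderated standard error) of the 36 genes, in 3 classes down the y axis, with filled points for adjusted p under 0.05 and dashed lines at the class medians of -0.41 for transferases and -0.11 for thioesterases. Among transferases, 13 genes lie between -1.20 and -0.38 and 10 between -0.08 and 0.10.

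Zdhhc13 encodes one of the pair of ankyrin-repeat transferases known as huntingtin-interacting proteins. Its log2 values were 8.01, 8.07, 7.71 and 7.35 in KCl arrays, against 8.99, 8.69, 9.21 and 9.05 in untreated arrays. All KCl values lay below all untreated ones. It averaged 7.79 ± 0.334 in KCl arrays and 8.99 ± 0.218 in untreated arrays (SD, n = 4 each), and the log2 change of -1.20 (SE 0.182) passed the test (adjusted p = 0.0157). Leaving out the third KCl array (adjusted p = 0.0572) or the third untreated array (0.051) ended the call.

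Zdhhc21 encodes a small transferase whose mutation causes the depilated coat phenotype in mice and which is known to palmitoylate Src-family kinases. It stood at 6.58, 6.52, 6.55 and 6.57 in KCl arrays, against 7.13, 7.26, 7.69 and 7.91 in untreated arrays. The KCl values were nearly equal to each other, with an SD of 0.0283, whereas the untreated ones had an SD of 0.364. The log2 change was -0.94 (SE 0.169, adjusted p = 0.0271). The call held in 3 of 8 leave-one-out fits. It was lost when any of the 4 KCl arrays was removed (adjusted p = 0.0566, 0.0708, 0.0846 and 0.0777 in the order of their numbers), and when untreated replicate 3 was (0.0839).

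Zdhhc23 encodes a brain-expressed transferase first described as a partner of neuronal nitric oxide synthase. Its values were 7.88, 7.84, 7.38 and 7.68 in KCl arrays, against 8.58, 8.56, 8.41 and 8.53 in untreated arrays. The groups did not overlap, and the untreated arrays lay within a narrow band. The log2 change was -0.82 (SE 0.122, adjusted p = 0.0146), and it passed in all 8 leave-one-out fits, with adjusted p of 0.0186 to 0.0474. Without both arrays numbered 1, the log2 changes were -1.27 for Zdhhc13, -1.07 for Zdhhc21 and -0.86 for Zdhhc23, and all 3 passed (adjusted p = 0.0363, 0.0309 and 0.0316).

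**Figure D2:**
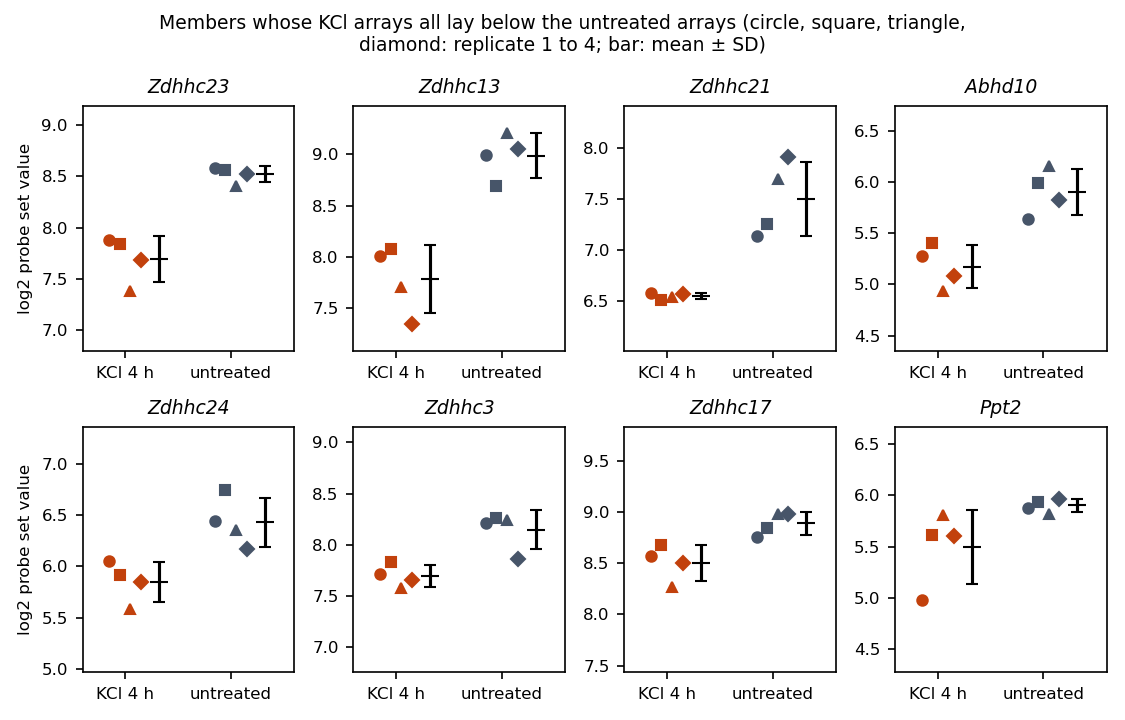
Log2 probe set values (y axis, each panel spanning the same range) of the 8 members whose KCl arrays (orange) all lay below the untreated arrays (grey), with a marker shape per replicate number and bars for mean ± SD. The gap is widest for Zdhhc13 and narrowest for Ppt2, where the highest KCl value is 5.81 and the lowest untreated value 5.82.

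A further 3 transferases had no overlap between groups but missed the threshold. Zdhhc24, one of the less studied members, stood at 6.05, 5.92, 5.58 and 5.85 in KCl arrays, against 6.45, 6.75, 6.36 and 6.17 in untreated arrays (log2 change -0.58, adjusted p = 0.0987). Zdhhc3, the Golgi enzyme also called GODZ that palmitoylates the γ2 subunit of GABA-A receptors, stood at 7.72, 7.83, 7.58 and 7.66 in KCl arrays, against 8.22, 8.26, 8.24 and 7.86 in untreated arrays. Untreated replicate 4 lay apart from the other 3. With all arrays the log2 change of Zdhhc3 was -0.45 (adjusted p = 0.101), and without untreated replicate 4 it was -0.55 and passed (adjusted p = 0.045). Zdhhc3 did not pass in the other 15 alternatives. Zdhhc17, the other ankyrin-repeat enzyme, which palmitoylates huntingtin, Snap25 and the vesicle chaperone Dnajc5, stood at 8.58, 8.68, 8.27 and 8.50 in KCl arrays, against 8.75, 8.84, 8.98 and 8.98 in untreated arrays (log2 change -0.38, adjusted p = 0.15). In all, KCl arrays lay entirely below untreated ones for 6 of 23 transferases and 2 of 11 thioesterases, against 4.33% of all genes, and entirely above for no member, against 3.83%.

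KCl was the lower array in 4 of 4 same-numbered pairs for 10 of 23 transferases, against 13.2% of all genes. The same held for 2 of 11 thioesterases and 1 of 2 cofactors. KCl was the higher array in 4 of 4 pairs for no member and for 2434 of all 22180 genes. In 4 of the 10 transferases the groups overlapped. Zdhhc15, a Golgi enzyme that palmitoylates Dlg4, averaged 5.87 ± 0.352 in KCl arrays and 6.54 ± 0.265 in untreated arrays (SD, n = 4 each, adjusted p = 0.158). Zdhhc4 averaged 5.79 ± 0.204 in KCl arrays and 6.24 ± 0.218 in untreated arrays (adjusted p = 0.19). Zdhhc6, an enzyme of the endoplasmic reticulum that acts on calnexin, averaged 5.60 ± 0.412 in KCl arrays and 6.16 ± 0.212 in untreated arrays (adjusted p = 0.266). The difference in Zdhhc6 and Zdhhc4 was larger than either group's SD, but neither passed. Zdhhc12, which palmitoylates the inhibitory scaffold gephyrin, changed by -0.41 on that scale (SE 0.201, adjusted p = 0.454).

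The last 3 transferases with negative changes of this size were Zdhhc8 (log2 change -0.55), Zdhhc7 (-0.41) and Zdhhc18 (-0.42), with adjusted p of 0.577, 0.629 and 0.735. Zdhhc8 acts on the receptor-binding scaffolds Grip1 and Pick1, Zdhhc7 is a Golgi enzyme related to Zdhhc3, and Zdhhc18 is a Golgi enzyme that acts on Ras proteins. Each was lower in KCl in 3 of 4 pairs, and their SEs were 0.262 to 0.325. For Zdhhc18, KCl replicate 4 stood at 6.10 and the other 3 KCl arrays at 7.18 to 7.38, against 6.86 to 7.85 in untreated arrays. Without KCl replicate 4, the log2 change of Zdhhc18 was -0.11.

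The transferase changes divided into 2 ranges, a split made after the values were seen. In the lower range 13 genes lay at -1.20 to -0.38, where 8.08% of all genes lay at or below its upper edge. The other 10 lay between -0.08 and 0.10, and none of them passed. The split did not hold with single arrays left out. Without KCl replicate 4, Zdhhc18 of the lower range was at -0.11 and Zdhhc19 of the other range at -0.13. Without KCl replicate 1, Zdhhc1 of the other range was at -0.41. All 13 genes of the lower range, and 6 of the other 10, were above the level of the median gene.

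Those 6 include enzymes known for their work on synaptic scaffolds. Zdhhc2, a mobile dendritic enzyme for Dlg4, stood at 8.41, 8.78, 9.53 and 8.92 in KCl arrays, against 8.32, 8.79, 9.11 and 9.18 in untreated arrays. Zdhhc5, a surface enzyme that acts on delta-catenin, stood at 9.48, 9.65, 9.87 and 9.74 in KCl arrays, against 9.87, 9.61, 9.81 and 9.48 in untreated arrays. The groups overlapped throughout for both genes, with log2 changes of 0.06 (SE 0.266) and -0.01 (SE 0.124). Zdhhc9, a Ras transferase whose loss in humans causes intellectual disability, had a log2 change of 0.04 (SE 0.263). Zdhhc14, which acts on potassium channels of axons, had one of 0.10 (SE 0.208), and Zdhhc20, which acts on the EGF receptor, one of 0.09 (SE 0.109).

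Zdhhc1, the sixth, differed between replicate numbers and little between treatments. It stood at 7.28, 5.35, 5.78 and 5.72 in KCl arrays, against 7.13, 5.82, 5.67 and 5.49 in untreated arrays. The array numbered 1 was the highest of its group in both. Its log2 change was 0.00 with an SE of 0.482, and the SE was 0.14 with the replicate number as a block. The astrocyte markers, which were highest in the same arrays, averaged 9.67 in KCl replicate 1 and 10.1 in untreated replicate 1, against 9.08 to 9.53 in the other 6 arrays. Whether the 2 are related was not tested.

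Zdhhc11, Zdhhc19, Zdhhc22 and Zdhhc25 lay below the level of the median gene of 4.76, with log2 changes of -0.08 to 0.06. Zdhhc19 and Zdhhc25 are known mainly from the testis. RMA, which the authors used, compresses differences near background, so a change in these 4 genes may have been missed. Whether their signal lay above background was not assessed.

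The cofactors bind particular transferases: Golga7 (GCP16) is the partner of Zdhhc9, and Golga7b is the partner of Zdhhc5 at the cell surface. Golga7b stood at 6.92, 7.15, 7.56 and 7.36 in KCl arrays, against 7.08, 8.12, 8.17 and 7.82 in untreated arrays. It was lower after KCl in 4 of 4 pairs, with untreated replicate 1 lying among the KCl values. The log2 change of -0.55 (SE 0.25) did not pass with all arrays (adjusted p = 0.404), nor in any leave-one-out fit (0.0634 to 0.68). Golga7 averaged 9.07 ± 0.245 in KCl arrays and 9.26 ± 0.341 in untreated arrays (adjusted p = 0.814), a difference smaller than either SD.

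Among the thioesterases, Abhd10 encodes a mitochondrial enzyme that removes palmitate from peroxiredoxin 5. It stood at 5.28, 5.40, 4.94 and 5.08 in KCl arrays, against 5.64, 5.99, 6.16 and 5.82 in untreated arrays. The groups did not overlap, and the log2 change was -0.73 (SE 0.146, adjusted p = 0.0431). The call was lost with the replicate block (adjusted p = 0.0509) and with 7 of the 8 arrays left out in turn (adjusted p = 0.0696, 0.053, 0.119 and 0.124 for KCl replicates 1 to 4, and 0.119, 0.108 and 0.0846 for untreated replicates 2 to 4). Without both arrays numbered 1 it passed (log2 change -0.85, adjusted p = 0.048). A second, dimmer probe set of Abhd10 averaged 4.74 ± 0.106 in KCl arrays and 4.76 ± 0.171 in untreated arrays, at the level of the median gene, with a log2 change of -0.02. With the mean of both probe sets, the log2 change of Abhd10 was -0.37 (adjusted p = 0.115).

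Neither lysosomal thioesterase passed the test. Ppt2, which is related to Ppt1 but prefers other substrates, stood at 4.98, 5.61, 5.81 and 5.60 in KCl arrays, against 5.88, 5.94, 5.82 and 5.97 in untreated arrays (log2 change -0.40, adjusted p = 0.361). KCl replicate 1 lay lowest, and without it the log2 change of Ppt2 was -0.23. Ppt1, whose loss causes the infantile form of neuronal ceroid lipofuscinosis, averaged 9.37 ± 0.168 in KCl arrays and 9.51 ± 0.184 in untreated arrays (adjusted p = 0.799).

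None of the cytosolic and membrane-bound thioesterases known from synaptic proteins passed. The acyl-protein thioesterases Lypla1 (APT1) and Lypla2 (APT2) had log2 changes of -0.20 (SE 0.223) and -0.11 (SE 0.147). Abhd17a, Abhd17b and Abhd17c, which remove palmitate from Dlg4 and N-Ras, had log2 changes of -0.09 (SE 0.213), 0.16 (SE 0.194) and -0.11 (SE 0.165). Abhd17b was the 1 thioesterase with a positive change, with values of 9.08, 8.24, 8.87 and 8.73 in KCl arrays, against 8.90, 8.55, 8.53 and 8.31 in untreated arrays. Its groups overlapped. Abhd13, a little-studied member of the same fold family, had a log2 change of -0.32 (adjusted p = 0.565). Abhd12, known chiefly as a lysophosphatidylserine lipase, had one of -0.04, and Lyplal1, a relative of the acyl-protein thioesterases, one of 0.00.

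Set side by side, the transferases had the lower median. It was -0.41 over 23 transferases and -0.11 over 11 thioesterases, a difference of -0.30, while the median over all genes was -0.01. Over genes brighter than the median gene, the medians were -0.42 over 19 transferases and -0.11 over 11 thioesterases, with -0.05 over all 11090 such genes. No test was run on these medians, since the members were chosen with the comparison known. Changes were below 0 for 16 of 23 transferases and 10 of 11 thioesterases, against 52.9% of all genes.

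The same values were also laid out array by array, as each class's median deviation from the genes' means over 8 arrays. For transferases it was -0.12, -0.10, -0.16 and -0.26 in KCl arrays, against 0.19, 0.12, 0.29 and 0.03 in untreated arrays. All 4 KCl arrays lay below 0 and all 4 untreated arrays above it. For thioesterases it was -0.03, -0.09, 0.08 and -0.12 in KCl arrays, against 0.18, 0.04, 0.19 and -0.06 in untreated arrays. Here the groups overlapped, although KCl was lower in each same-numbered pair. The median over all genes stayed between -0.02 and 0.01 in every array. These deviations restate the changes above and give no separate support. Each gene's deviations balance around its own mean. A class with negative changes thus tends to lie below 0 in KCl arrays and above 0 in untreated ones. The size of the gap between classes depended on single arrays: it was -0.16 without KCl replicate 3, -0.17 without untreated replicate 4, -0.20 without KCl replicate 4 and -0.21 without untreated replicate 1.

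**Figure D3:**
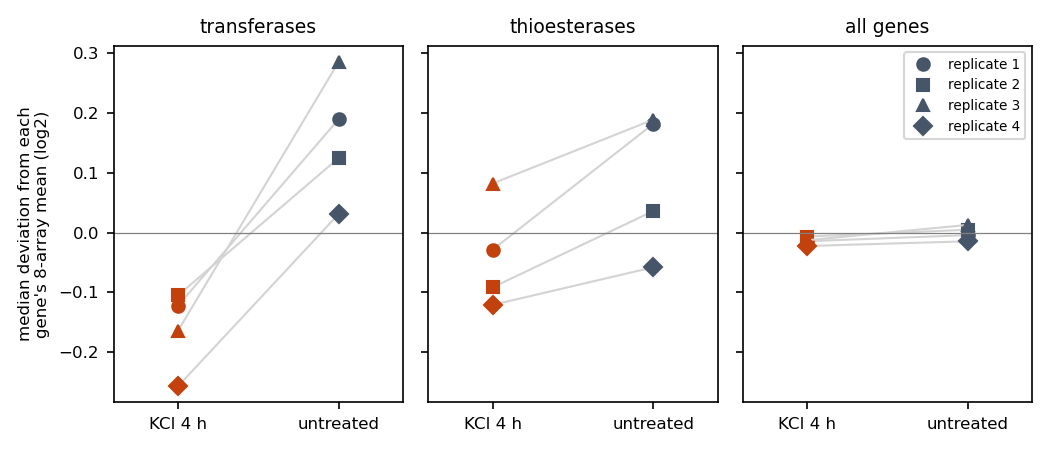
Median over each class of the deviation from the gene's mean over 8 arrays (y axis, log2) for KCl arrays (orange) and untreated arrays (grey), with lines joining same-numbered arrays. The class medians restate the changes of the members. For transferases the KCl arrays lie below the untreated ones. Thioesterases overlap between groups while each line slopes the same way, and the median over all genes stays near 0.

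The changes of closely related members were set side by side in 12 pairs. The pairs were picked after the values were seen, so the differences of their log2 changes are given without a test. Each has a 95% interval from the spread between arrays within groups. These intervals leave out the pairing of same-numbered arrays, and whether any of them excludes 0 could change with it. The change of Zdhhc13 minus that of Zdhhc17 was -0.82 (-1.24 to -0.397), with both below 0. In the subfamily of Zdhhc2, Zdhhc15 and Zdhhc20, the change of Zdhhc15 minus that of Zdhhc20 was -0.75 (-1.5 to -0.00821), and minus that of Zdhhc2 it was -0.72 (-1.62 to 0.179). The intervals of the other 9 pairs included 0 as well. For the surface pair, Zdhhc8 minus Zdhhc5 was -0.54 (-1.40 to 0.316), and for the Golgi pair Zdhhc3 minus Zdhhc7 was -0.04 (-0.614 to 0.536). For Zdhhc9 and its relatives, Zdhhc18 minus Zdhhc9 was -0.46 (-1.82 to 0.904), the widest interval of the 12. Zdhhc14 minus Zdhhc9 was 0.06 (-0.685 to 0.801). For the cofactors, Golga7b minus Golga7 was -0.36 (-1.21 to 0.494). Among the thioesterases, Ppt2 minus Ppt1 was -0.27 (-0.798 to 0.265) and Lypla1 minus Lypla2 was -0.09 (-0.786 to 0.61). Abhd17b minus Abhd17a was 0.25 (-0.291 to 0.785), and Abhd17c minus Abhd17a was -0.02 (-0.804 to 0.768).

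The calls of the 4 genes that passed held unequally across settings. Zdhhc23 stayed under an adjusted p of 0.05 in all 16 alternatives, Zdhhc13 in 14, Zdhhc21 in 11 and Abhd10 in 5. The direction was the same for all 4 genes in each alternative.

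**Figure D4:**
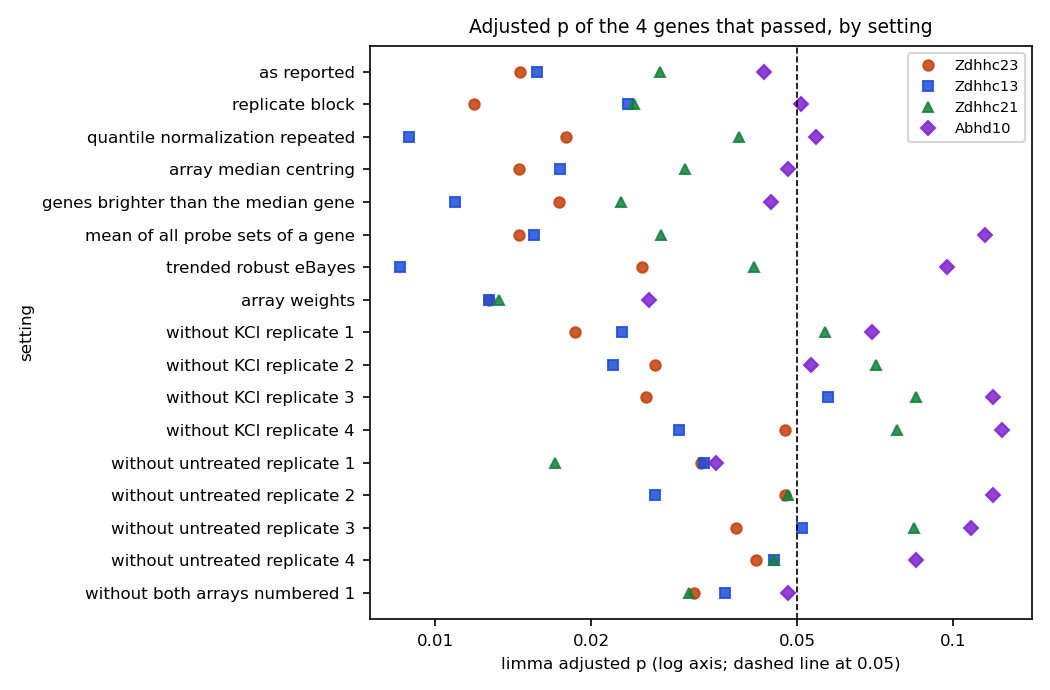
Limma adjusted p (x axis, log scale, dashed line at 0.05) of the 4 genes that passed, under the reported fit and 16 alternatives (y axis). Zdhhc23 stays left of the line throughout, and Abhd10 crosses it in 11 of 16 alternatives.

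Genes that supply or carry palmitate were looked at beside the enzymes. Of 17 measured genes of palmitoyl-CoA supply or use, none passed, with a median log2 change of -0.06. At an unadjusted limma p under 0.05, 2 were lower and 1 higher. Among all 22180 genes, 1627 (7.34%) were lower and 1261 higher at that limit, and 2.36% passed after adjustment. The smallest p-values of the 17 were those of Acsl6, the brain acyl-CoA synthetase, Slc27a4, a fatty acid transport protein, and Acot13, an acyl-CoA thioesterase. Acsl6 stood at 8.30, 7.74, 8.02 and 8.02 in KCl arrays, against 8.77, 8.43, 8.54 and 8.33 in untreated arrays. Its groups did not overlap, and its log2 change of -0.50 (adjusted p = 0.149) passed with the replicate block (0.0499). Acsl6 did not pass in the other 15 alternatives. With the mean of all its probe sets, its log2 change was -0.30 (adjusted p = 0.247). Slc27a4 had a log2 change of -0.56 (adjusted p = 0.24) and Acot13 one of 0.32 (adjusted p = 0.375).

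Of 40 measured genes for neuronal proteins known to carry palmitate, 1 rose, none fell and 39 did not pass in RNA. At an unadjusted limma p under 0.05, 4 were higher and 1 lower. Among all 22180 genes, 1261 were higher and 1627 lower at that limit, and 1.34% rose after adjustment. In the list, the median log2 change was -0.02. The one that rose was Rgs4, a regulator of G protein signalling, at 10.99, 10.92, 11.21 and 11.03 in KCl arrays, against 10.50, 10.64, 10.64 and 10.51 in untreated arrays (log2 change 0.47, adjusted p = 0.0437). Its groups did not overlap, but Rgs4 passed in 4 of 16 alternatives only. The call was lost with the replicate block (adjusted p = 0.0522), among genes brighter than the median gene (0.0935), with trended robust eBayes (0.0514), in all 8 leave-one-out fits (0.0611 to 0.114) and without both arrays numbered 1 (0.12).

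The widest differences in that list belonged to a pair of genes that missed the threshold. Arc, an activity-regulated protein that promotes the uptake of AMPA receptors from the synapse, stood at 8.14, 6.80, 7.97 and 8.63 in KCl arrays, against 6.93, 6.49, 6.04 and 5.83 in untreated arrays (log2 change 1.56, 2.96-fold, adjusted p = 0.0915). Its groups overlapped by KCl replicate 2, which lay below untreated replicate 1. Arc passed without KCl replicate 2 (log2 change 1.92, adjusted p = 0.0242) and among genes brighter than the median gene (0.0485), and in none of the other 14 alternatives. Snap23, a membrane-fusion protein related to Snap25, stood at 8.01, 8.0, 7.84 and 6.90 in KCl arrays, against 6.07, 5.89, 6.52 and 7.14 in untreated arrays (log2 change 1.28, 2.44-fold, adjusted p = 0.101). It was higher after KCl in 3 of 4 pairs and passed in no alternative. Rgs7bp, a palmitoylated anchor of R7 RGS proteins, passed with the block (log2 change 0.83, adjusted p = 0.0189, but 0.165 without the block). The gene that was lower at the unadjusted limit was Bace1, the beta-secretase (log2 change -0.28, adjusted p = 0.363). Dlg4 itself averaged 9.57 ± 0.101 in KCl arrays and 9.53 ± 0.208 in untreated arrays (SD, n = 4 each), a difference smaller than either SD.

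Of 16 measured genes of other lipid modifications, 1 rose, none fell and 15 did not pass, with a median log2 change of -0.04. At an unadjusted limma p under 0.05, 3 were higher and 0 lower. Among all 22180 genes, 1261 were higher and 1627 lower at that limit, and 1.34% rose after adjustment. Rabggtb, the catalytic subunit of the enzyme that prenylates Rab GTPases, rose 1.82-fold, with values of 6.19, 5.96, 6.14 and 6.11 in KCl arrays, against 5.08, 5.45, 5.40 and 5.05 in untreated arrays (log2 change 0.86, SE 0.12, adjusted p = 0.0117). Its groups did not overlap, and it passed in all 8 leave-one-out fits (adjusted p = 0.0203 to 0.0478). Chml, a Rab escort protein that works with it, had a log2 change of 0.58 (adjusted p = 0.203) and passed with the block (0.0438). Nmt2, an N-myristoyltransferase, had one of 0.44 (adjusted p = 0.158). Selenok, the selenoprotein cofactor of Zdhhc6, had one of -0.25 (adjusted p = 0.645).

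Promoter sequence was taken from RefSeq (build GRCm38.p6) for the genes that passed, to show the DNA before their starts. The table held 28 of the 36 members, Zdhhc13 not among them, and only bases outside the annotated gene are printed. For Zdhhc21, 26 bases were left, and they are not shown. Both stretches lie on the minus strand, at chr16:43979821-43980059 for Zdhhc23 and chr16:45742956-45743205 for Abhd10. Capitals mark matches on either strand to 3 short motifs. These are the GC box, searched as GGGCGG, the box named CCAAT after its letters, and the E-box, searched as CACGTG. In Abhd10, a GGGCGG match on the opposite strand overlaps a CCAAT match.
Zdhhc23: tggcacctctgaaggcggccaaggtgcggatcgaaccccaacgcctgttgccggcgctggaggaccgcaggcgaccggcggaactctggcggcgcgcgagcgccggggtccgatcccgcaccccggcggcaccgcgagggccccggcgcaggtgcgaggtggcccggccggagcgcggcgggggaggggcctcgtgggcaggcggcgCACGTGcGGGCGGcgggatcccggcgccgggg
Abhd10: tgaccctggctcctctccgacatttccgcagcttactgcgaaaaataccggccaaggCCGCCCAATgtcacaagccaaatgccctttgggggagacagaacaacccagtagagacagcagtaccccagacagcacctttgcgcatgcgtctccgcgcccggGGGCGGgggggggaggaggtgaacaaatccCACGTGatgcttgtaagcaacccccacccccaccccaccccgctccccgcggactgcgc

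Both stretches hold a CACGTG. It was found in 2 of 18 transferase genes and 1 of 9 thioesterase genes with a window, against 6.02% of all 32851 windows of 250 bases before a start. The letters GGGCGG were found in 14 of 18 transferase genes and 7 of 9 thioesterase genes with a window, against 32.7% of all windows. The windows of Zdhhc23, Abhd10 and Zdhhc21 were 80.8%, 63.2% and 65.6% G or C, against a median of 52.4% over all windows. The cyclic AMP response element TGACGTCA (1.55% of windows) and the AP-1 letters TGANTCA (6.75%) were found in none of the windows of the 28 members, 1 cofactor among them. The shorter TGACG, in 17.8% of all windows, was found in 5 of 18 transferase and 2 of 9 thioesterase genes. A gene counted if any of its windows matched, while the shares are of single windows, so they are unlike measures. All 250 bases of a window were searched, also those inside the annotated gene. A match of letters describes these windows only.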

How the data were processed

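Values were used as deposited: log2 levels per probe set, which the authors made with RMA and Partek, as the submitters' processing notes name them, without versions, settings or their order. RMA compresses differences near background, and signal over background was not assessed here. Per the labels' protocols, RNA was labelled with a WT Plus kit from Affymetrix. Of 34472 probe sets, 23521 had 1 gene symbol in the platform annotation, 1814 had several, which name no gene here, and 9137 were unnamed. The brightest probe set was kept for each of 1082 genes with several, which left 22180 genes. No column belonged to other samples and no 2 arrays were identical.

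Groups were taken from the titles. One linear model of group was fitted to all genes with lmFit and eBayes (limma 3.58.1, R 4.3.3). Two-sided p-values were adjusted by Benjamini-Hochberg over all 22180 genes, with a threshold of 0.05. The code was tested on simulated data. Same-numbered arrays deviated together from their group means (correlations across genes of 0.638, 0.234, 0.409 and 0.368, with at most 0.302 for other pairs), so the numbers of the titles were taken to pair the arrays, and the planned fit was repeated with that number as a block. Other alternatives were quantile normalization repeated, median centring, the mean of all probe sets, only genes above the median gene's level, trended robust eBayes, array weights, each array left out, and, chosen after seeing the data, both arrays numbered 1 left out. Motifs were searched by exact letters. Figures were drawn with matplotlib 3.10.9.

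The members, supporting lists, markers and alternatives were chosen with earlier results of these data known. The rule for named genes took every member, and from each supporting list those past the threshold or, where none passed, the 3 of smallest p. Outside that rule, Arc, Snap23, Rgs7bp, Bace1, Akap5, Dlg4, Nmt2, Chml and Selenok were added after their values were seen. No coordinates are given for probe sets: no source used here names the build of the array annotation.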

Additional observations from a re-analysis of the deposited data

Results flagged for a closer look

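In 3 of 72 groups of 4 arrays, 1 member's value lay far from the other 3 by Dixon's criterion, where chance alone marks about 5% of groups. Zdhhc18 stood at 6.10 in KCl replicate 4, against 7.18 to 7.38 in the other KCl arrays. In untreated replicate 4, Zdhhc3 stood at 7.86, against 8.22 to 8.26 in the other untreated arrays, and Lypla2 at 7.58, against 8.14 to 8.22.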

How the results depend on the processing

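The count of 3 transferases held in all 8 fits that kept every array or left out both arrays numbered 1, and ranged from 1 to 4 with single arrays left out. The count of 1 thioesterase was 0 with the replicate block, repeated quantile normalization, the mean of all probe sets or trended robust eBayes, and 0 to 1 with single arrays left out. The replicate block changed no other member's call. Over all genes 524 passed, 985 with the block and 186 to 501 with single arrays left out. With single arrays left out, the median log2 change was -0.44 to -0.27 for transferases and -0.19 to -0.04 for thioesterases, and their difference -0.32 to -0.16. With the block, 1 gene of palmitoyl-CoA supply or use and 2 of other lipid modifications passed. Of the genes for palmitoylated proteins, 0 passed with trended robust eBayes or without both arrays numbered 1, and 0 to 1 with single arrays left out. The gene called was Rgs7bp with the block, Arc among genes brighter than the median gene and without KCl replicate 2, and without untreated replicate 1 it was Akap5, which fell (log2 change -0.609, adjusted p = 0.0338). Cofactors stayed at 0. None of the genes that changed sign had passed the test. With repeated quantile normalization the log2 changes were 0.062 for Lyplal1, -0.00155 for Zdhhc2, -0.0184 for Zdhhc9 and -0.0157 for Dlg4, and with median centring 0.00451 for Lyplal1. With array weights they were 0.025 for Lyplal1, -0.025 for Zdhhc22, 0.0188 for Zdhhc5 and -0.0568 for Zdhhc9. Without both arrays numbered 1 they were 0.0419 for Abhd17a, 0.0119 for Lypla1, 0.0723 for Lyplal1, -0.0423 for Zdhhc1, -0.0518 for Zdhhc22, 0.118 for Zdhhc5, -0.125 for Zdhhc9 and -0.0122 for Dlg4. With single arrays left out they ranged from -0.411 to 0.373 for Zdhhc1, -0.137 to 0.105 for Zdhhc22, -0.0789 to 0.059 for Zdhhc5, -0.15 to 0.225 for Zdhhc2, -0.157 to 0.214 for Zdhhc9, -0.0166 to 0.274 for Zdhhc14, -0.128 to 0.0613 for Abhd12, -0.282 to 0.0636 for Abhd17a, -0.192 to 0.00901 for Abhd17c, -0.0523 to 0.114 for Dlg4 and -0.047 to 0.0824 for Lyplal1. Causes were not tested. Signal over background was not available, and 4 arrays a group limit what could pass.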

Other observations

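Zdhhc16, a transferase known to act on Zdhhc6, shared its probe set with Mms19, an iron-sulphur assembly gene, and the signal may come from either gene. The shared probe set averaged 7.25 ± 0.145 in KCl arrays and 6.94 ± 0.461 in untreated arrays (SD, n = 4 each). The log2 change was 0.31, and the limma adjusted p over all probe sets was 0.729. Dimmer probe sets of Lypla1 and Zdhhc20 had log2 changes of 0.06 and -0.07.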
